A study of Homo sapiens with 5 samples.

Results

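Solute carriers that move amino acids across the plasma membrane and the lysosomal membrane were followed in xenograft tumours of HT-29 cells, a human colon cancer line, from mice on 4 diets. The set holds 7 plasma membrane proteins, SLC7A5, SLC3A2, SLC1A5, SLC38A1, SLC38A2, SLC7A11 and SLC43A1, and 3 lysosomal carriers, SLC36A1, SLC36A4 and SLC38A9. These 10 genes were chosen by symbol from the 26364 genes listed in each count file, and all 10 were found. A filter on low counts kept 10005 genes for testing, 9 of them from this set. SLC36A4, with 41 counts over the 5 libraries, did not pass the filter, while SLC38A9, with 44, and SLC36A1, with 50, did.

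HT-29 is an established cell line, and here it grew beneath the back skin of NOD SCID mice. This immunodeficient strain lacks T and B cells, keeps innate immune cells and supplies the stroma of the tumour. The mice were female and 5 weeks old when obtained, and ate their food for 2 weeks, although the design text also speaks of a period of 3 weeks. A group with 1 library ate normal food. Methionine was missing from the food of a group with 2 libraries, replicates 1 and 2. Tryptophan and niacin were missing in a group with 1 library, and all 3 nutrients in a last group with 1 library, called the combined omission. Cell line, host strain and sex were the same in all groups. The labels do not say whether the methionine-free pair came from separate mice, and the p-values therefore reflect no more than the spread among the samples at hand, possibly a technical one. The normal and combined-omission libraries bear shorter titles than the 3 others, and if the title styles mark a difference in handling, it and the diet cannot be told apart.

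Amino acid carriers set which amino acids a cell can take up. SLC7A5 exchanges large neutral amino acids, methionine and tryptophan among them, and needs SLC3A2, a glycoprotein with 1 membrane span, to reach the cell surface. SLC7A11 uses the same partner to import cystine in exchange for glutamate. SLC1A5, SLC38A1 and SLC38A2 bring in glutamine and other small neutral amino acids, and SLC43A1 is a facilitative carrier of large neutral amino acids. On the lysosome SLC36A1 exports small amino acids with protons, SLC36A4 is a related carrier, and SLC38A9 senses arginine and signals to the growth-controlling kinase complex mTORC1. Lack of amino acids is known to raise the transcription factor ATF4, which induces several of these genes.

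Promoter sequences were available for 9 of the 10 carriers in the RefSeq table of GRCh38.p14, at 19 start sites. SLC7A11 had no entry. Each window ran from 250 bases before the start to 50 after it. They were searched on both strands for the amino acid response element to which ATF4 binds (TGATGNAAN), the core of the antioxidant response element (TGACNNNGC) and the core of the CLEAR element of lysosomal genes (TCACGTGA). The 3 stretches below, all upstream of a start, were chosen because SLC36A1 had the widest spread between libraries, SLC3A2 was lowest in both methionine-free libraries and SLC1A5 had the highest level. Capitals mark the matched letters.
SLC36A1: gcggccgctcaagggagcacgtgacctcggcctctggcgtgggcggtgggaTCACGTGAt
SLC3A2: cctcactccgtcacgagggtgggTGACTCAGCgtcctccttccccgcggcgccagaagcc
SLC1A5: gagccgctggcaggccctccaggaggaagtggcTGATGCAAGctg
The SLC36A1 stretch lies on the plus strand at chr5:151447543-151447602, before the downstream of 2 listed starts, and its CLEAR core occupies positions −9 to −2. That core occurred in 0.98% of 35116 promoter windows and in no other carrier of the set. The SLC3A2 stretch, chr11:62881639-62881698 on the plus strand, holds TGACTCAGC, which also contains the AP-1 letters TGACTCA. The antioxidant core occurred in 13.3% of windows, and SLC7A5 and SLC1A5 held it too. The SLC1A5 stretch, chr19:46784900-46784944 on the minus strand, lies before the most downstream of 3 listed starts, and its amino acid response element occupies positions −97 to −89. That element occurred in 3.61% of windows and was also matched in SLC3A2 and SLC38A1. These matches describe letters in the windows and do not show binding.

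The libraries were shallow, with totals between 433930 counts (combined omission) and 1088084 counts (normal food). Levels are given as CPM, counts scaled to a common library size with TMM factors, and 1 count was worth 0.927 to 2.31 CPM. Methionine-free replicate 2 stood apart. Between it and replicate 1, 660 of 10005 genes (6.6%) differed at least 2-fold with a counting interval that excluded a ratio of 1, and its long transcripts were low. The length trend fitted in replicate 2 was −0.37 on the log2 scale for SLC38A1, −0.39 for SLC7A11 and −0.23 for SLC36A1, against 0.11 for SLC3A2. Markers of the colon epithelium were detected in 12 of 12 cases in every library, with a summed level of 14299 to 17648 CPM. All 3 red cell markers were at 0 in every library, endothelial markers summed to at most 2 counts, fibroblast markers to 7 to 20 counts, mostly COL1A1, and adipocyte markers to at most 3. Of the 4 keratinocyte markers KRT10 alone had counts, 9 to 29. Of the 7 leukocyte markers PTPRC, CSF1R and FCGR3A were at 0 in every library, and LYZ made up most of the 2061 to 3781 CPM. The 7 skeletal muscle markers summed to 42 counts in the tryptophan/niacin-free library and to at most 2 in any other. Their part in the results was not tested. The stroma comes from the mouse, while these counts are listed under human gene symbols. Low counts of stromal, vessel or blood markers therefore do not show that such host cells were few. In bulk tumours fewer cells of a type and less RNA per cell cannot be told apart.

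The carriers of the plasma membrane were far more abundant than those of the lysosome. Summed over the 7 genes, the plasma membrane carriers stood at 1504 CPM on normal food, 1345 and 1167 CPM in methionine-free replicates 1 and 2, 1460 CPM without tryptophan and niacin and 1723 CPM in the combined omission. The 3 lysosomal carriers together stood at 29.7, 49.3, 24.3, 51.1 and 67.1 CPM in the same order, which rests on 15 to 32 counts a library. Per kilobase of exon, the scale on which genes can be compared, SLC1A5 was highest with a median of 130 CPM per kilobase over the 5 libraries (range 122 to 184). SLC3A2 followed with 72.8, SLC7A5 with 42.2, SLC38A2 with 37.3, SLC38A1 with 32.4, SLC43A1 with 21.4 and SLC7A11 with 7.12. SLC38A9 (4.18), SLC36A1 (2.84) and SLC36A4 (2.29) were lowest. SLC1A5 lay clear of SLC3A2 (48.9 to 87.7), and SLC43A1 (14.2 to 23.9) clear of SLC7A11 (5.03 to 9.23). All other neighbours in this order had overlapping ranges, from SLC3A2 through SLC7A5 (33.2 to 53.0), SLC38A2 (28.1 to 41.8) and SLC38A1 (23.1 to 35.5) to SLC43A1, and from SLC7A11 down to SLC36A4, so that their order was not resolved. Among the 9583 tested genes with a known length, SLC1A5 lay above 96.2% in this measure and SLC36A1 above 6.22%.

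**Figure D1:**
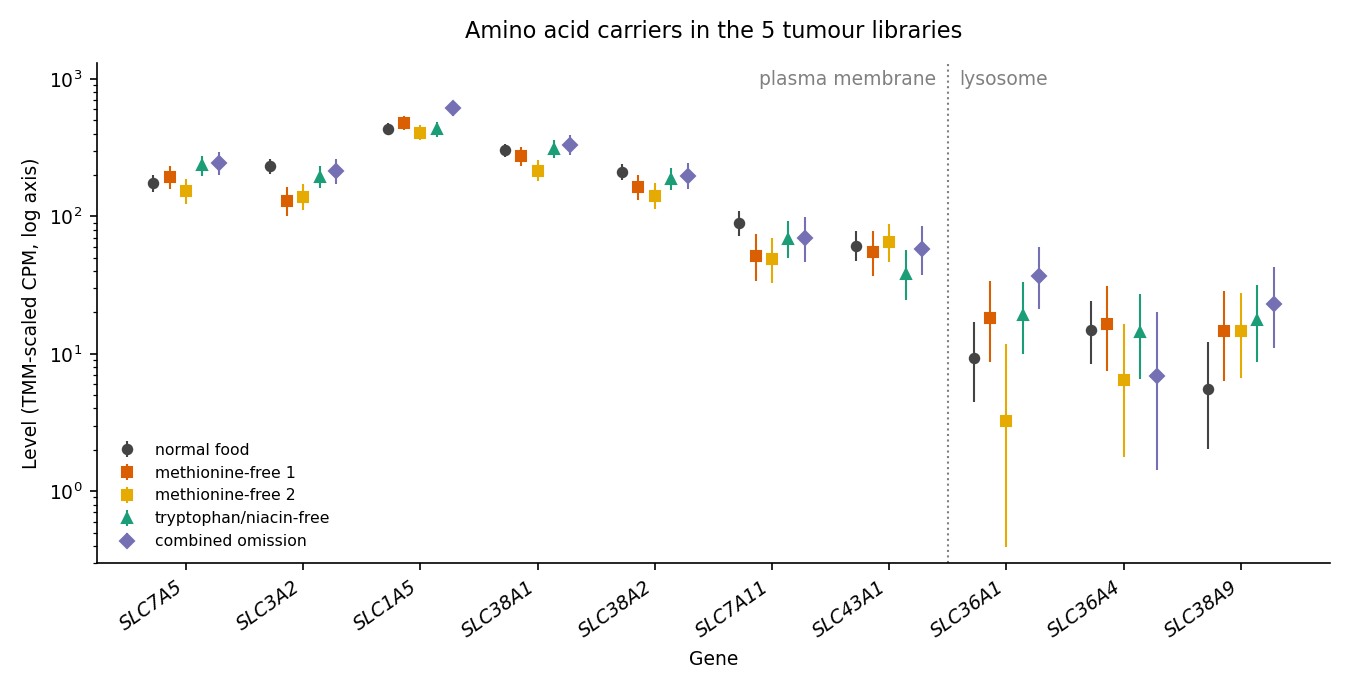
Level of each carrier in each library, in TMM-scaled CPM on a log axis, with the 95% exact Poisson interval of its count as the bar; colours and symbols mark the 5 libraries. The 7 plasma membrane carriers sit above 30 CPM in every library, while the 3 lysosomal carriers sit between 3.24 and 37.0 CPM with wide counting intervals.

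Leaving methionine out of the food went with lower levels of SLC3A2 and SLC7A11, but neither passed after adjustment over all genes. SLC3A2, the shared partner subunit, stood at 233 CPM on normal food, 130 and 139 CPM in methionine-free replicates 1 and 2 (mean 134 ± 6.67, SD, n = 2), 193 CPM without tryptophan and niacin and 213 CPM in the combined omission. Both methionine-free libraries were the lowest of the 5, and the pair did not overlap with the rest, an order that 15.9% of all tested genes showed. The log2 fold change of methionine-free against normal food was −0.79 (SE 0.42, 95% interval −1.61 to 0.03, adjusted p = 0.681 by edgeR's quasi-likelihood test with Benjamini-Hochberg adjustment), and −0.86 once transcript length was corrected for (unadjusted p = 0.00786, adjusted p = 0.442). SLC7A11, the cystine importer, stood at 89.0 CPM on normal food, 51.2 and 48.5 CPM without methionine, 68.6 CPM without tryptophan and niacin and 69.4 CPM in the combined omission. Here too both methionine-free libraries were the lowest of the 5, and the normal library the highest. This order was lost after the length correction. Replicate 2 (67.4 CPM) then lay above the tryptophan/niacin-free library (66.4 CPM) and the combined omission (66.6 CPM). Its log2 fold change was −0.83 (SE 0.41, 95% interval −1.65 to −0.02, unadjusted p = 0.0438, adjusted p = 0.639 by edgeR), and −0.50 once transcript length was corrected for (unadjusted p = 0.149, adjusted p = 0.721).

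SLC7A5, the large neutral amino acid exchanger that carries methionine and tryptophan, was not lowest in both methionine-free libraries as its partner SLC3A2 was. It stood at 174 CPM on normal food, 194 and 152 CPM in methionine-free replicates 1 and 2, 235 CPM without tryptophan and niacin and 243 CPM in the combined omission. The normal library lay between the methionine-free pair, and both libraries without tryptophan and niacin were the highest. The log2 fold change of methionine-free against normal food was −0.01 (95% interval −0.86 to 0.83), so that a difference inside this interval was not detectable. The interval also holds the −0.79 of SLC3A2, and a difference between the 2 genes was not tested. In 3 of the 5 libraries the deposited value of SLC7A5 carried decimals, and this gene has near-identical copies, which makes its counts uncertain. The copy SLC7A5P2 was listed with at most 6 counts and SLC7A5P1 with at most 1. SLC7A11 carried decimals in 4 libraries, and its antisense gene SLC7A11-AS1 had at most 3 counts.

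The glutamine carriers differed among themselves. SLC1A5 stood at 435 CPM on normal food, 479 and 406 CPM without methionine, 429 CPM without tryptophan and niacin and 613 CPM in the combined omission, which was the highest library while the 4 others lay close together. SLC38A1 stood at 302, 274, 215, 310 and 331 CPM in that order of libraries, and SLC38A2 at 209, 163, 141, 187 and 197 CPM. For both, the methionine-free pair was the lowest, as for SLC3A2 and SLC7A11, an order that 15.9% of all tested genes showed. SLC38A2 kept this order after the length correction and SLC38A1 lost it. Length-corrected SLC38A1 stood at 276 CPM on normal food and at 275 and 283 CPM in methionine-free replicates 1 and 2. Its log2 fold change against normal food was then 0.010. The log2 fold changes of methionine-free against normal food were −0.31 for SLC38A1 (95% interval −1.17 to 0.55), −0.47 for SLC38A2 (−1.29 to 0.35) and 0.02 for SLC1A5 (−0.90 to 0.95). SLC43A1, the facilitative carrier of large neutral amino acids, stood at 61.2, 54.8, 64.7, 38.3 and 57.8 CPM, lowest without tryptophan and niacin. Its log2 fold change without methionine was −0.03 (−0.86 to 0.80).

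Of the 9 carriers tested, 0 passed the threshold of an adjusted p of 0.05 in this comparison by edgeR, where 23 of 10005 genes (0.23%) did, and 0 passed by DESeq2 or limma-voom. At an unadjusted p of 0.05, 1 carrier passed by edgeR (SLC7A11) and 0 by DESeq2 or limma-voom, with 7.68% of all genes passing by edgeR and 5.21% passing with a lower level. The 7 plasma membrane carriers had a median log2 fold change of −0.31, with 1 of 7 above 0, beside a median of 0.00 over all genes, of which 5033 of 10005 lay above 0. With transcript length corrected for, that median was −0.09 with 3 of 7 above 0. Without methionine-free replicate 2 it was −0.16 and without replicate 1 it was −0.49. The methionine-free pair lay below all 3 other libraries for 4 of the 7, SLC3A2, SLC38A1, SLC38A2 and SLC7A11. This order was picked out after the values were seen, and 15.9% of all tested genes showed it. After the length correction it held for 2 of the 7, SLC3A2 and SLC38A2, beside 13.6% of all genes.

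**Figure D2:**
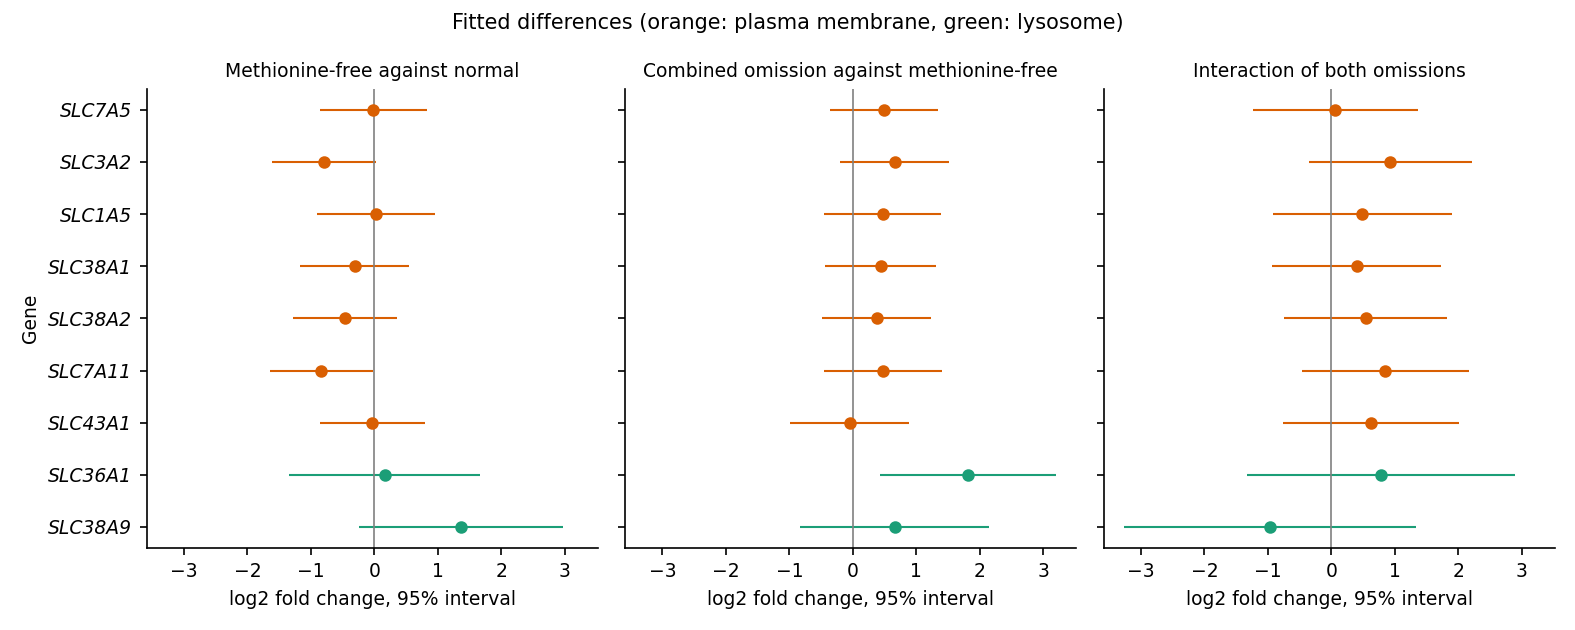
Fitted log2 fold change (dot) with its 95% interval (bar) for the 9 tested carriers in 3 comparisons of edgeR's model. All intervals cross 0 but those of SLC7A11 without methionine (−1.65 to −0.02) and SLC36A1 in the combined omission against methionine-free food (0.43 to 3.20), neither of which passed after adjustment over all genes.

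The lysosomal carriers had the largest differences and the fewest counts. SLC36A1, the proton-coupled exporter of small amino acids, had 10 counts on normal food, 10 and 2 in methionine-free replicates 1 and 2, 12 without tryptophan and niacin and 16 in the combined omission. These counts gave 9.27, 18.3, 3.24, 19.2 and 37.0 CPM. The combined omission was highest, and the methionine-free pair spanned the value on normal food. Replicate 1 was 5.65-fold above replicate 2, with a counting interval of 1.20-fold to 53.0-fold, so that the pair itself differed beyond counting error. SLC38A9, the arginine sensor, had 6 counts on normal food, 8 and 9 without methionine, 11 without tryptophan and niacin and 10 in the combined omission. At 5.56, 14.6, 14.6, 17.6 and 23.1 CPM it was lowest on normal food, an order that 15% of all tested genes shared. SLC36A4 had 16, 9, 4, 9 and 3 counts in this order of libraries, at 14.8, 16.4, 6.47, 14.4 and 6.94 CPM. Of the lysosomal carriers it was the only one that was not highest in the combined omission, but its 3 counts there are compatible with 1.43 to 20.3 CPM.

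In the methionine-free libraries SLC38A9 had a log2 fold change of 1.36 against normal food (SE 0.82, 95% interval −0.24 to 2.97, adjusted p = 0.756 by edgeR). For SLC36A1 it was 0.16 (−1.34 to 1.66), or 0.96 without methionine-free replicate 2 and −1.47 without replicate 1. Its direction thus differed between the 2 replicates. The difference between plasma membrane and lysosomal carriers in this comparison, medians of −0.31 and 0.76, rests on 2 lysosomal genes with 44 and 50 counts in all.

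With methionine already left out, SLC36A1 had the largest difference of the set when tryptophan and niacin were left out too. The combined omission stood 1.81 above methionine-free food on the log2 scale (SE 0.71, 95% interval 0.43 to 3.20, unadjusted p = 0.0101, adjusted p = 0.532 by edgeR). The value was 1.01 without methionine-free replicate 2 and 3.45 without replicate 1. The model took its spread from all genes, so that the SE does not measure the gap of SLC36A1 between these 2 replicates. SLC3A2 followed among the plasma membrane genes with 0.66 (95% interval −0.20 to 1.52, adjusted p = 0.76 by edgeR). SLC7A5 (0.49), SLC7A11 (0.48), SLC1A5 (0.47), SLC38A1 (0.44) and SLC38A2 (0.38) lay close to each other, SLC38A9 stood at 0.66 and SLC43A1 at −0.05. By edgeR 0 of 9 carriers passed, beside 3 of 10005 genes (0.03%) that did, and DESeq2 and limma-voom passed 0 carriers. At an unadjusted p of 0.05 the number was 1 by edgeR, 0 by DESeq2 and 1 by limma-voom, beside 7.57% of all genes by edgeR (4.62% with a higher level). The plasma membrane carriers had a median of 0.47 with 6 of 7 above 0, beside −0.02 over all genes with 4878 of 10005 above 0. The median was 0.27 after the length correction.

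Food without tryptophan and niacin was also set against food without methionine. SLC36A1 stood at 0.87 (95% interval −0.59 to 2.33), SLC43A1 at −0.64 (−1.59 to 0.30) and SLC3A2 at 0.52 (−0.32 to 1.37). By edgeR 0 of 9 carriers passed and 0% of all genes did, and at an unadjusted p of 0.05 the numbers were 0 carriers and 4.91% of genes. DESeq2 and limma-voom passed 0 carriers at either level.

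The layout of the diets allowed a test of whether leaving out methionine had another effect when tryptophan and niacin were absent too. The interaction is the methionine effect without tryptophan and niacin minus the effect with them. It was positive in 7 of 7 plasma membrane carriers, with a median of 0.54 beside −0.02 over all genes, of which 4911 of 10005 were positive. The largest values were 0.93 for SLC3A2 (SE 0.66, 95% interval −0.36 to 2.22, adjusted p = 0.903 by edgeR) and 0.85 for SLC7A11 (SE 0.67, −0.47 to 2.17, adjusted p = 0.926). For SLC7A5 the value was 0.06, but −0.05 after the length correction and −0.10 without methionine-free replicate 2, each of which left 6 of 7 positive. The lysosomal genes pointed in opposite directions, with 0.78 for SLC36A1 and −0.97 for SLC38A9. No carrier passed, 0 of 9 by edgeR, DESeq2 or limma-voom, also at an unadjusted p of 0.05 (1 by edgeR after the length correction), where 6.45% of all genes passed by edgeR and 0.43% passed after adjustment. The comparisons share libraries, so that a low methionine-free pair alone places a gene below 0 in the first and above 0 in the others. The interaction also sets the normal and combined-omission libraries, those with shorter titles, against the remaining libraries. If the titles mark a difference in handling, it and the interaction cannot be told apart.

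An additive model gave each omission averaged over the other. Leaving out tryptophan and niacin went with 1.47 for SLC36A1 (SE 0.59, 95% interval 0.18 to 2.76, unadjusted p = 0.0284, adjusted p = 1 by edgeR), 1.05 for SLC38A9 (SE 0.55, −0.14 to 2.24) and 0.46 for SLC7A5 (SE 0.27, −0.13 to 1.06). Both libraries without tryptophan and niacin lay above the 3 others for these 3 genes and for SLC38A1, an order shared by 10% of all tested genes and picked out after the values were seen. After the length correction 3 carriers kept that order, beside 10.6% of all genes. SLC36A1 did not, since methionine-free replicate 1 (21.2 CPM) then lay just above the tryptophan/niacin-free library (21.1 CPM). In counts, SLC36A1 had 28 in the libraries without tryptophan and niacin and 22 in the others, which scaled for depth gave a ratio of 2.70 (counting interval 1.49 to 4.95). SLC38A9 had 21 and 23, a ratio of 1.94 (1.02 to 3.66). SLC36A4, which was not tested, had 12 and 29, a ratio of 0.877 (0.408 to 1.77). The filter on low counts could keep a gene through 1 library. SLC38A9 passed it only through the libraries without tryptophan and niacin, where it was highest. Its high level there and its place among the tested genes are therefore not independent. The largest averaged effects of leaving out methionine were 0.89 for SLC38A9 (−0.31 to 2.08), 0.56 for SLC36A1 (−0.75 to 1.87), −0.50 for SLC7A11 (−1.17 to 0.16) and −0.41 for SLC3A2 (−1.04 to 0.22). In both averaged comparisons 0 of 9 carriers and 0% of all genes passed by edgeR, and 0 carriers by DESeq2 or limma-voom. At an unadjusted p of 0.05 edgeR passed 1 carrier for tryptophan and niacin (1.63% of genes, 0.86% with a higher level) and 0 for methionine (1.73% of genes), DESeq2 passed 0 in both, and limma-voom passed 1 and 0. Without methionine-free replicate 2, or without the combined omission, edgeR passed 0 carriers for tryptophan and niacin at that level.

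The 3 diets with a lone library were compared by size alone, with no replicate check and no test. A gene counted as different where the log2 CPM difference was at least 2-fold and the 95% exact interval of the count ratio excluded 1, which describes 2 libraries and not 2 conditions. In the combined omission 2 of 9 carriers lay beyond this rule against normal food, beside 2.02% of all genes (0.95% higher), and both were lysosomal. SLC36A1 was 3.99-fold higher (1.70 to 9.84) and SLC38A9 4.16-fold higher (1.37 to 13.9). Without tryptophan and niacin 1 of 9 did, beside 3.52% of all genes (1.01% higher), namely SLC38A9 with a ratio of 3.16 (1.07 to 10.4), while that of SLC36A1 was 2.07 (0.818 to 5.34). SLC38A9 passed the filter on low counts only through these 2 libraries, so that its excess in them is no independent result. SLC36A4, which did not pass the filter, had a ratio of 0.468 (0.0874 to 1.63) in the combined omission against normal food. SLC36A1 lay beyond the same rule between the methionine-free replicates, as 6.6% of all genes did. Of the plasma membrane carriers 0 of 7 lay beyond the rule in any of these comparisons. SLC1A5 in the combined omission was 1.41-fold above normal food (1.21 to 1.64) and 1.43-fold above the tryptophan/niacin-free library (1.20 to 1.70), and SLC7A5 was 1.39-fold (1.09 to 1.78) and 1.35-fold (1.08 to 1.68) above normal food in the combined omission and without tryptophan and niacin. These intervals exclude 1 but cover counting error only. Between the combined omission and the tryptophan/niacin-free library 0 of 9 lay beyond the rule, beside 4.04% of all genes.

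Carriers that share a partner or a substrate were also compared within each library, where depth cancels but the trend with transcript length does not. The ratio of SLC7A5 to SLC3A2 counts was 0.749 on normal food (95% exact interval 0.617 to 0.908), 1.49 (1.10 to 2.05) and 1.09 (0.807 to 1.48) in methionine-free replicates 1 and 2, 1.21 (0.949 to 1.56) without tryptophan and niacin and 1.14 (0.854 to 1.53) in the combined omission. Normal food was the lowest, and its interval was clear of those of methionine-free replicate 1 and of the tryptophan/niacin-free library but overlapped with the other two. The ratio of SLC7A11 to SLC3A2 was 0.382 on normal food, 0.394 and 0.349 without methionine, 0.355 without tryptophan and niacin and 0.326 in the combined omission. All 5 of its intervals overlapped. With length-corrected levels, added after seeing the data, this ratio was 0.348 on normal food, 0.402 and 0.512 in methionine-free replicates 1 and 2, 0.326 without tryptophan and niacin and 0.303 in the combined omission. Replicate 2 was then the highest library, while the ratio of SLC7A5 to SLC3A2 was still lowest on normal food (0.717, against 1.09 to 1.47). SLC38A1 to SLC38A2, related carriers with overlapping substrates, stood at 1.44, 1.69, 1.53, 1.66 and 1.68, again with overlapping intervals. With 1 library of normal food, its low SLC7A5 to SLC3A2 ratio has no replicate.

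**Figure D3:**
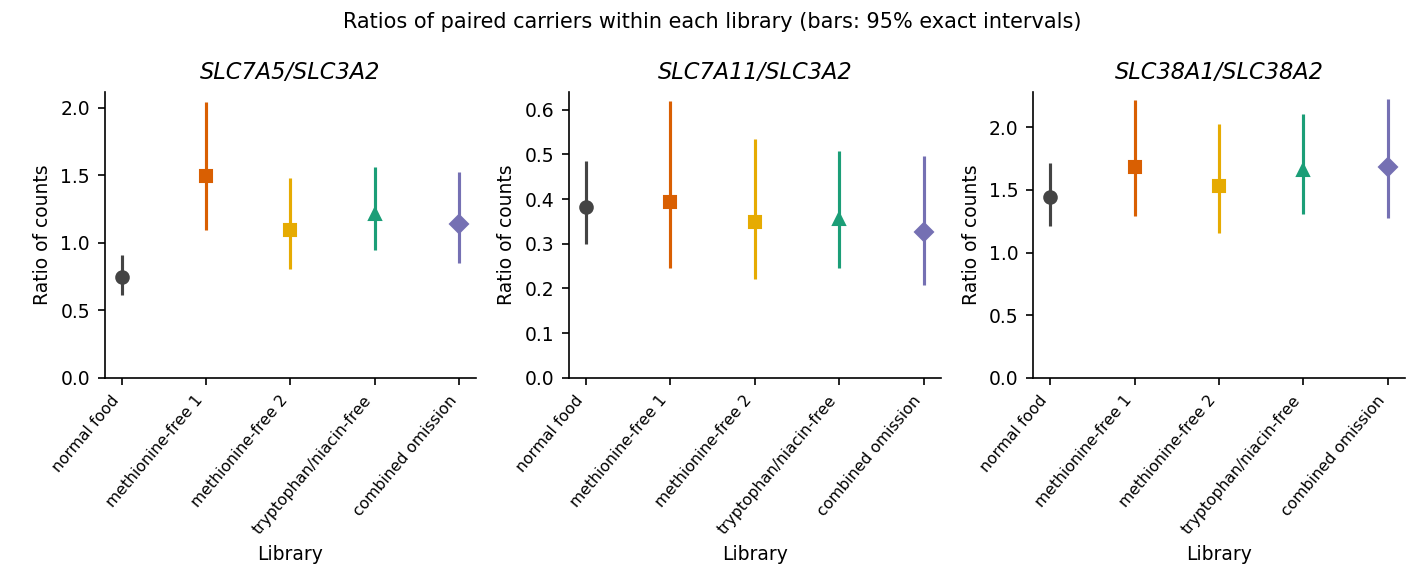
Ratio of counts of 2 carriers within each library (dot) with its 95% exact binomial interval (bar), for SLC7A5 to SLC3A2, SLC7A11 to SLC3A2 and SLC38A1 to SLC38A2; each axis starts at 0. The ratio of SLC7A5 to SLC3A2 is 0.749 on normal food and between 1.09 and 1.49 elsewhere, while the 2 other ratios stay within 0.326 to 0.394 and 1.44 to 1.69.

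The likeness of the profiles was described by the root mean square distance of log2 CPM, centred over the 5 libraries and not corrected for length, among 24 tested amino acid carriers. SLC3A2 and SLC7A11 were each other's nearest (distance 0.10 on the log2 scale), as SLC38A1 was to SLC38A2 (0.09) among the genes of the set. The nearest to SLC38A2 was SLC6A6, the taurine carrier (0.07). The nearest to SLC7A5 was SLC7A6 (0.09), another SLC3A2-dependent exchanger, and to SLC1A5 the lysosomal glutamine carrier SLC38A7 (0.10). SLC36A1 had no close match, its nearest being SLC38A10 at 0.62. These distances take no account of counting error, and SLC7A11 had only 28 to 43 counts a library outside normal food. With length-corrected levels the ratio of SLC7A11 to SLC3A2 ran from 0.303 to 0.512.

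Other carriers and lysosomal genes, taken from lists chosen for their function, gave the setting. Of 26 other plasma membrane amino acid carriers 9 were tested, and 0 passed in any of the 6 tested comparisons by edgeR (at an unadjusted p of 0.05, 1 without methionine and 1 without tryptophan and niacin against methionine-free food). Their median log2 fold change without methionine was 0.15, against −0.31 for the 7 of the set, and 0.25 for the averaged omission of tryptophan and niacin, as in the set (0.25). SLC3A1, the heavy partner of the cystine and dibasic amino acid carrier, was beyond the size rule. It stood at 64.0 CPM on normal food, 102 and 66.3 CPM without methionine, 30.3 CPM without tryptophan and niacin and 78.7 CPM in the combined omission. The tryptophan/niacin-free library was thus 2.11-fold below normal food (1.25 to 3.71) and the combined omission 2.59-fold above it (1.44 to 4.81). Of 12 other lysosomal or endosomal carriers 6 were tested and 0 passed or lay beyond the size rule, with medians of 0.06 without methionine and 0.31 for tryptophan and niacin. Of 12 partners of SLC38A9 on the lysosome, the Rag and Ragulator subunits and the folliculin complex, 11 were tested and 0 passed or lay beyond the rule (medians −0.10 and −0.19). Of 23 lysosomal membrane proteins, hydrolases and proton pump subunits 20 were tested, again with 0 (medians 0.23 and −0.06). SLC36A1 and SLC38A9, at 1.47 and 1.05 for the averaged omission of tryptophan and niacin, lay above the highest value of each of these 3 lysosomal lists, which were 0.46, 0.66 and 0.21. Both values are imprecise (SE 0.59 and 0.55), as these genes had 50 and 44 counts in all. SLC38A9 passed the filter on low counts only through the libraries without tryptophan and niacin, so that its place here is no independent result. SLC36A4, not tested, had a count ratio of 0.877 (0.408 to 1.77) for the libraries without tryptophan and niacin over the others.

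**Figure D4:**
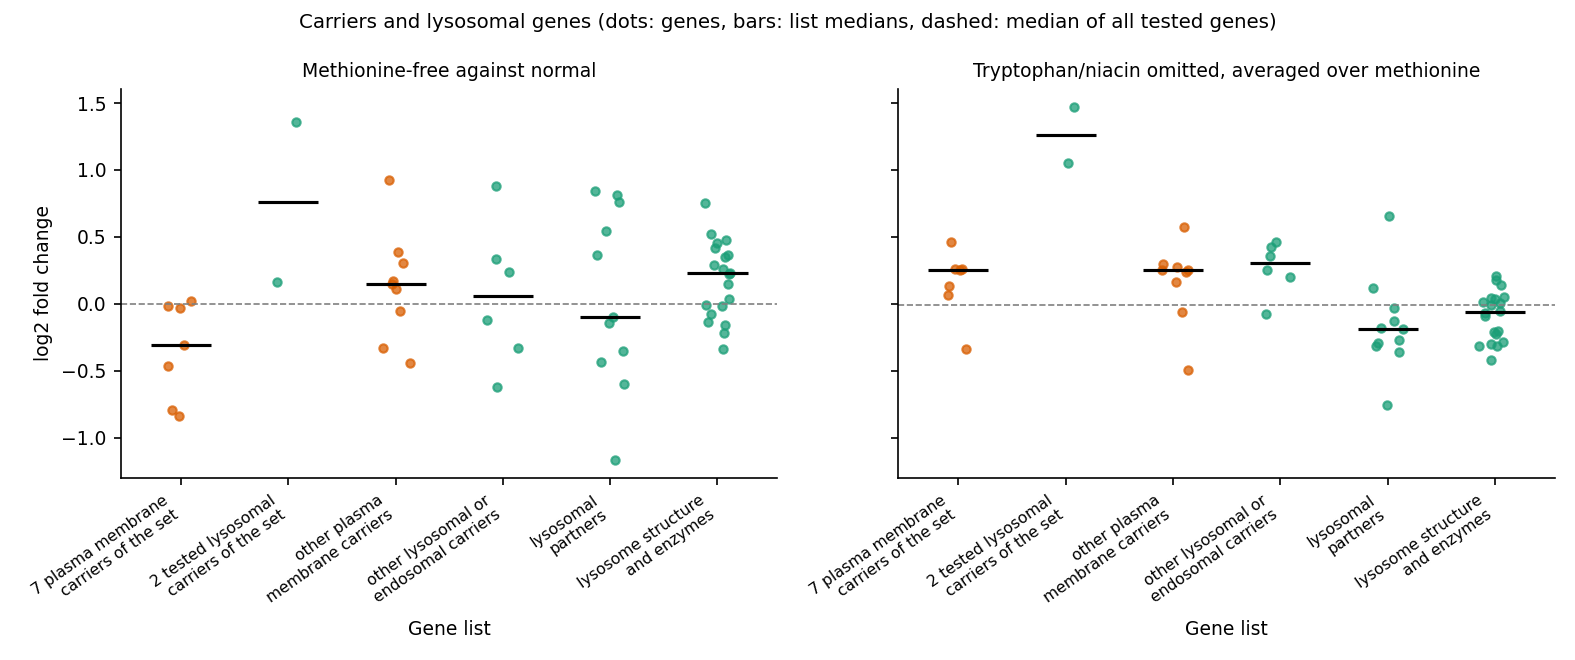
Log2 fold change of each tested gene (dot) and the median of each list (bar) without methionine (left) and for the averaged omission of tryptophan and niacin (right), with the median of all 10005 tested genes dashed; a slight sideways scatter separates the dots. The 7 plasma membrane carriers have medians of −0.31 and 0.25, and the 2 tested lysosomal carriers lie at 0.16 and 1.36 on the left and at 1.47 and 1.05 on the right.

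Regulators and response genes that accompany these carriers were read beside them. ATF4, which drives the response to a lack of amino acids, stood at 350 CPM on normal food, 272 and 380 CPM without methionine, 326 CPM without tryptophan and niacin and 280 CPM in the combined omission. The normal library lay within the methionine-free pair. NFE2L2, the antioxidant regulator of SLC7A11, stood at 96.4, 93.2, 98.7, 118 and 102 CPM, and MYC, which induces SLC7A5 and SLC1A5, at 202, 197, 222, 241 and 257 CPM. None of these 3, chosen after their values were seen, had both methionine-free libraries below normal food. In the same list the response genes TRIB3 and CEBPB did, as did DDIT3 and ATF3, described below. TRIB3 stood at 105 CPM on normal food and at 76.7 and 82.5 CPM in methionine-free replicates 1 and 2. These are RNA levels, and the part of these regulators in the carrier levels was not tested. DDIT3, which encodes the stress factor CHOP, stood at 57.5 CPM on normal food, 14.6 and 30.7 CPM without methionine, 16.0 CPM without tryptophan and niacin and 53.2 CPM in the combined omission. It was the 1 gene of the 11 tested in this list to pass in any comparison, with an interaction of 3.04 (adjusted p = 0.0443 by edgeR). Of all tested genes 0.43% passed for the interaction. DDIT3 was high in the normal and combined-omission libraries, those with shorter titles. A difference in handling, if the titles mark one, cannot be told apart from this interaction. DDIT3 and ATF3, another stress-induced factor, also lay beyond the size rule without tryptophan and niacin, at −1.67 and −1.37 on the log2 scale against normal food. TFEB, a regulator of CLEAR-bearing lysosomal genes, had 15, 11, 11, 17 and 5 counts, or 13.9, 20.1, 17.8, 27.1 and 11.6 CPM. TFEB was highest without tryptophan and niacin and lowest in the combined omission, where it rested on 5 counts. Its part in the carrier levels was not tested either.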

How the data were processed

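RNA of 5 tumour samples was made into stranded mRNA libraries, per the labels' protocols. TopHat2 2.1.1 with Bowtie2 2.2.8, SAMtools 0.1.18, and featureCounts with Subread 2.0.0 are listed next to hg19 in the submitters' processing notes, with no order or role. The sources used here give neither the annotation nor the strand setting nor any separation of mouse reads. The authors deposited expected counts per gene symbol (15.2% to 17.6% of values above 0 carried decimals), which were rounded to whole numbers here. SLC7A5, SLC7A11 and SLC1A5 overlap genes on the other strand in GENCODE v29, so that their counts are uncertain. Tests were run in R 4.3.3 with the quasi-likelihood method of edgeR 4.0.16 after TMM scaling, a filterByExpr filter by diet and Benjamini-Hochberg adjustment over 10005 genes, and were checked on simulated data, with limma 3.58.1 and DESeq2 1.42.0 as alternatives. The methionine-free pair gave the model with 1 mean per diet its only residual degree of freedom (biological coefficient of variation 0.207), and lone libraries were assumed to vary like that pair. In this model the spread of each gene was shrunk wholly to the trend over all genes (infinite prior degrees of freedom). Its SEs, intervals and p-values therefore do not measure a gene's own replicate spread. The additive model has 2 residual degrees of freedom (0.227). Log2 differences under the size rule used a prior count of 2. Count intervals, exact binomial or Poisson at 95%, cover counting error alone, as duplicates from PCR were not marked. Exon lengths came from GENCODE v29, another build, and served for levels per kilobase and for a loess correction of each library's length trend. All 10 carriers were named, and of the other lists the genes past the test or the size rule and those nearest in likeness. SLC7A1, SLC7A6, SLC38A10, FLCN, ATF4, NFE2L2, MYC, TRIB3, CEBPB and TFEB were chosen after their values were seen. The carriers and lists were chosen with earlier results of these data known.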

Additional observations from a re-analysis of the deposited data

How the results depend on the processing

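No carrier passed the adjusted threshold under total-count scaling, no filter, a length correction, DESeq2, limma-voom or a fit of the 3 libraries concerned, nor in the additive model without any 1 library (leaving out lone libraries was added after seeing the data). The lowest adjusted p of a carrier was 0.336, for SLC36A1 in the combined omission against methionine-free food by limma-voom. With 1 mean per diet, leaving out a methionine-free replicate leaves no residual degree of freedom and gives fold changes only. The number of carriers with the methionine-free pair lowest went from 4 to 2 after the length correction, a count also added after seeing the data. Of 495 log2 values 25 changed sign and 470 kept it; the cause was not tested. Between lone libraries, SLC1A5 without tryptophan and niacin against normal food (−0.018) turned to 0.022 with total-count scaling and 0.012 with the length correction, and SLC7A11 in the combined omission against the tryptophan/niacin-free library (0.015) turned to −0.016 with total-count scaling. With total-count scaling, SLC1A5 turned to −0.037 in methionine-free against normal food and to 0.059 in tryptophan/niacin-free against methionine-free food, SLC43A1 to 0.028 in the combined omission against methionine-free food, and SLC7A5 to −0.036 for averaged methionine omission (−0.0079 with no filter). With the length correction, SLC38A1 turned to 0.010 and SLC7A5 to 0.092 in methionine-free against normal food, SLC43A1 to 0.023 in the combined omission against methionine-free food, SLC7A5 to −0.047 in the interaction, SLC38A1 to 0.042 for averaged methionine omission and SLC7A11 to −0.084 for averaged tryptophan and niacin omission. By limma-voom SLC36A1 turned to −0.21 in methionine-free against normal food. Leaving out 1 methionine-free replicate at a time gave these ranges. In methionine-free against normal food they were −0.16 to 0.083 for SLC43A1, −0.19 to 0.15 for SLC7A5, −0.097 to 0.14 for SLC1A5 and −1.47 to 0.96 for SLC36A1. In the combined omission against methionine-free food SLC43A1 ranged from −0.16 to 0.081, and in tryptophan/niacin-free against methionine-free food SLC1A5 ranged from −0.15 to 0.082. In the interaction SLC7A5 ranged from −0.10 to 0.24 and SLC36A1 from −0.021 to 2.41. Averaged methionine omission gave −0.072 to 0.10 for SLC7A5, and averaged tryptophan and niacin omission −0.029 to 0.035 for SLC7A11. No paired analysis was possible because the labels give no replicate numbers that groups share. Depth limits the lysosomal carriers most, since 3 counts, the floor used here, were worth 2.78 to 6.94 CPM.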

Other observations

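Carriers outside the set gave further values. SLC7A1, the main carrier of cationic amino acids, stood at 358 CPM on normal food, 360 and 212 CPM in methionine-free replicates 1 and 2, 396 CPM without tryptophan and niacin and 354 CPM in the combined omission, so that replicate 2 alone was low. SLC7A6 stood at 92.7, 119, 82.5, 148 and 141 CPM in that order of libraries. It was highest in both libraries without tryptophan and niacin, an order shared by 10% of all tested genes. SLC38A10 stood at 150, 117, 79.3, 120 and 197 CPM, with an interaction of 1.33 on the log2 scale (adjusted p = 0.729 by edgeR). FLCN, the folliculin gene whose product acts on the Rag proteins, stood at 37.1, 23.8, 9.71, 49.5 and 32.4 CPM. It was lowest in the methionine-free pair, an order that 15.9% of all tested genes showed. It had 13 and 6 counts in that pair and did not pass against normal food (adjusted p = 0.596 by edgeR).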
